A study of Mus musculus with 8 samples.

Results

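Genes that run the cell division cycle and copy the genome were followed through 8 arrays of sorted mouse mononuclear phagocytes, the monocytes, macrophages and dendritic cells of the spleen and colon. A list of 44 genes was taken by name and measured through probe sets that carry 1 gene symbol, with the brightest probe set used where a gene had several. Of the 44 genes, 42 were measured, among 19938 genes on the arrays. Ccnb1, the main mitotic cyclin B, had no probe set under its own symbol alone in the annotation used here, and the probe set of Cdkn1a, the p21 inhibitor, carried more than 1 symbol, so neither is analysed here. The 42 genes comprised 5 G1 cyclins and kinases, 17 genes of S phase (4 of the G1/S switch, 8 of origin licensing and 5 of DNA synthesis), 19 mitotic genes (2 proliferation markers, 6 mitotic kinases and cyclins, 4 of the spindle checkpoint and mitotic exit and 7 of the spindle, kinetochore and midzone) and 1 inhibitor of cyclin-dependent kinases, Cdkn2c.

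Every sample came from C57BL/6 mice of the genotype Cx3cr1gfp/+, in which 1 copy of the fractalkine receptor gene is replaced by a green fluorescent reporter, so that fluorescence marks CX3CR1 and all groups lack 1 working copy. Colitis means day 4 of dextran sodium sulphate (DSS), a compound that damages the colonic epithelium. The colitis groups, all labelled male, were colonic CX3CR1int Ly6Clo cells, colonic CX3CR1int Ly6Chi cells, colonic CX3CR1hi F4/80hi cells and splenic Ly6Chi monocytes. The steady-state groups were colonic CX3CR1hi F4/80hi cells, labelled male, and colonic CX3CR1hi macrophages reconstituted from monocytes, colonic CX3CR1hi resident macrophages and splenic Ly6Chi monocytes, labelled female. Each group had 1 array, and the labels do not give the number of mice behind it, their age or the way in which the colon was reconstituted. Values are log2 RMA values, and a log2 difference of 1 is a 2-fold difference. Values of the CX3CR1hi arrays are given in the order colitis F4/80hi, steady-state F4/80hi, reconstituted and resident, and those of the splenic arrays in the order colitis and steady state. A difference between 2 single arrays has no replicate check and no test, and it describes those 2 arrays.

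The labels were set against marker genes. The median over 8 macrophage markers was 9.28 in the Ly6Clo array, 12.13 to 12.32 in the CX3CR1hi arrays, and 9.50 and 9.56 in the splenic arrays, and the Ly6Chi array lay between the CX3CR1hi and splenic arrays. Cx3cr1 itself was 7.51 in the Ly6Clo array and 7.95 in the Ly6Chi array, 11.29, 11.34, 10.88 and 11.21 in the CX3CR1hi arrays, and 9.95 and 10.76 in the splenic arrays, so it was lower in both CX3CR1int arrays than in the splenic ones. Epithelial RNA was present in every colonic array: Epcam was 10.27 in the Ly6Clo array and 9.85 in the Ly6Chi array, 10.99, 10.77, 10.76 and 11.60 in the CX3CR1hi arrays, and 6.01 and 5.52 in the splenic arrays. The steady-state splenic array, labelled female, went against its sex label by holding both Xist (10.04) and the Y-linked gene Eif2s3y (10.28). In the reconstituted and resident arrays, also labelled female, Xist was 12.28 and 12.17 and Eif2s3y was 4.34 and 4.36. In the 5 arrays labelled male, Xist was 4.30 to 4.78 and Eif2s3y 9.78 to 10.43. The numbers of cell cycle genes that passed a test against splenic cells are also given without the steady-state splenic array.

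As background, a cell enters the cycle when D-type cyclins, paired with the kinases CDK4 and CDK6, phosphorylate the retinoblastoma protein and release E2F transcription factors. E2F then drives genes for replication: the licensing factors CDC6 and CDT1 load the MCM helicase on origins, and ribonucleotide reductase and thymidylate synthase supply nucleotides. Mitotic genes follow later, and many of their promoters carry a CHR element (cell cycle genes homology region) and CCAAT boxes, through which the DREAM and MMB complexes and NF-Y act. Blood monocytes are largely non-dividing, whereas macrophages of several tissues and precursors of dendritic cells can divide locally.

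The promoters of these genes differed in letters between the S-phase and mitotic classes. The 5 shown are examples that hold E2F or CHR letters. They are Mcm6 and Mcm7, subunits of the replicative helicase, Cdk1, the mitotic kinase, Ccnb2, a B-type cyclin, and Top2a, the topoisomerase that untangles chromosomes. RefSeq promoters (GRCm38.p6) ran from 250 bases before to 50 bases after the annotated start, 300 in all. All 5 lie on the minus strand, at chr1:128359656-128359955 (Mcm6), chr5:138171834-138172133 (Mcm7), chr10:69352863-69353162 (Cdk1), chr9:70421505-70421804 (Ccnb2) and chr11:99024140-99024439 (Top2a), and are written 5′ to 3′ in the direction of transcription. Capitals mark the E2F letters TTTCCCGC, TTTCGCGC, TTTGCCGC or TTTGGCGC, the CHR letters TTTGAA and the box CCAAT, each on either strand. Neighbouring matches can share letters, as in Mcm6, where E2F matches on opposite strands run into each other, and in Mcm7, where an E2F match shares its last base with a CCAAT box.
Mcm6: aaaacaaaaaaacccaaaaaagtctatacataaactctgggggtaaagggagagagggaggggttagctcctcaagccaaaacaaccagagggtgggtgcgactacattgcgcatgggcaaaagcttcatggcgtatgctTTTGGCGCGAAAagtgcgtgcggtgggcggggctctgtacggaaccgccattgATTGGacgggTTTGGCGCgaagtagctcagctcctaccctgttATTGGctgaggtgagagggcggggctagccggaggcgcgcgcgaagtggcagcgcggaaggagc
Mcm7: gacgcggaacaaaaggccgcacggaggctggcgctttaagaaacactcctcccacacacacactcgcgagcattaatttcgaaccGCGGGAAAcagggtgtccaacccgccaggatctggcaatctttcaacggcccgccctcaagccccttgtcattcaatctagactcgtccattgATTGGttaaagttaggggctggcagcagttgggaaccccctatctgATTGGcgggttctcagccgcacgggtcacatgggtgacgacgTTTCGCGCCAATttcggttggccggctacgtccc
Cdk1: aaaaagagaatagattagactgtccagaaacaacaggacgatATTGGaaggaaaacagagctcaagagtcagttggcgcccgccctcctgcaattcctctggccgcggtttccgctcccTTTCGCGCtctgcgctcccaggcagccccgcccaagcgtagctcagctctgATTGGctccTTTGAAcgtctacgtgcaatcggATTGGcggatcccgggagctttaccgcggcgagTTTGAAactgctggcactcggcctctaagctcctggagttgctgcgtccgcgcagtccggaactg
Ccnb2: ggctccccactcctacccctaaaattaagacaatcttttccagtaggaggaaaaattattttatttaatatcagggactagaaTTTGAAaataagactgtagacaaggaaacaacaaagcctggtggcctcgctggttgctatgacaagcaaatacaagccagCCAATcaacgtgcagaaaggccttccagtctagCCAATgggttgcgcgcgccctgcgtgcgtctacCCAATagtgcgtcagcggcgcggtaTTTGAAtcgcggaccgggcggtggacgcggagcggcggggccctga
Top2a: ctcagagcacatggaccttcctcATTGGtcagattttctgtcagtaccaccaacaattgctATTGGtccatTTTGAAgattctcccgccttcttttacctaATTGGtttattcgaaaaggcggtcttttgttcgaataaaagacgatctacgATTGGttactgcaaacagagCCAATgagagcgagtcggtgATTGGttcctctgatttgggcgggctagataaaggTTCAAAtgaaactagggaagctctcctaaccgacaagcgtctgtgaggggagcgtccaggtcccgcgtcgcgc
Of the 42 measured genes, 34 had a promoter in the table, 39 promoters in all. E2F letters were found in 8 of 17 promoters of S-phase genes and in 1 of 16 promoters of mitotic genes, that of Cdk1, against 2.26% of all 32851 promoters. CHR letters were found in 1 of 17 promoters of S-phase genes, that of Mcm2, and in 12 of 16 promoters of mitotic genes, against 17.9% of all promoters. CCAAT was found in 12 of 17 and 14 of 16 promoters, against 37.4% of all, and CHR and CCAAT together in 1 of 17 and 12 of 16, against 6.95% of all. The 16 mitotic promoters belong to 15 genes. Those of Prc1 overlap and hold the same CHR and CCAAT letters, so these matches are counted more than once. None of the 4 promoters of the G1 genes Ccnd3, Cdk4 and Cdk6 held E2F or CHR letters. The promoter of Bub1, the gene with the highest Ly6Clo value relative to Ly6Chi among the 42, held neither. Nor did those of Rrm2 and Cenpe. Another promoter of Mcm7, which is not shown, held no E2F letters. A match is a stretch of letters and not a site of binding, and these windows do not cover enhancers.

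Across the 8 arrays, mitotic genes stood further above the splenic monocytes than S-phase genes did in every colonic population. Each gene was set against its own mean over both splenic arrays, which removes differences in brightness between probe sets, and the median over genes was taken in each array. For the 19 mitotic genes this median was 2.64 in the Ly6Clo array, 0.51 in the Ly6Chi array, and 1.10, 0.88, 1.48 and 1.40 in the CX3CR1hi arrays. For the 17 S-phase genes it was 1.78 in the Ly6Clo array, -0.07 in the Ly6Chi array, and 0.35, 0.31, 0.80 and 0.56 in the CX3CR1hi arrays. Both classes were highest in Ly6Clo and lowest among the colonic arrays in Ly6Chi, while the median over all genes lay between -0.09 and -0.02 in the colonic arrays. In Ly6Chi cells 18 of 19 mitotic genes were above both splenic arrays. Of 17 S-phase genes, 5 were above both and 7 below both. Among the 18, Cdc20, Cenpe, Cenpf and Prc1 were below the array median in Ly6Chi and both splenic arrays. Of the 10673 genes that reached the median of the array in 2 or more of the 8, 36.3% were above and 54.6% below. Cdc6 is not among these 10673 genes but is in the S-phase counts. It was below both splenic arrays in Ly6Chi and at least 2-fold above their mean in Ly6Clo. At least 2-fold above the splenic mean were 19 of 19 mitotic and 12 of 17 S-phase genes in Ly6Clo, against 12.1% of those 10673 genes, and 1 and 1 in Ly6Chi, against 9.51%. In the CX3CR1hi arrays the mitotic counts were 11, 8, 13 and 12 of 19 and the S-phase counts 3, 4, 8 and 4 of 17, against 15.7%, 14%, 16.3% and 17.5% of all genes, so that the S-phase share in the colitis F4/80hi array was near that of all genes. The mitotic median exceeded the S-phase median by 0.86 in Ly6Clo, 0.59 in Ly6Chi and 0.57 to 0.83 in the CX3CR1hi arrays. Set against each gene's mean over all 8 arrays instead, that excess was 0.21 in Ly6Clo, 0.06 in Ly6Chi and -0.11 to 0.26 in the CX3CR1hi arrays, against -0.43 and -0.52 in the splenic arrays. Against the colitis splenic array alone, which leaves out the array that went against its sex label, the mitotic medians were 2.65 in Ly6Clo, 0.47 in Ly6Chi and 0.90 to 1.46 in the CX3CR1hi arrays, and the S-phase medians were 1.89, 0.10 and 0.43 to 0.91. In such bulk samples, fewer dividing cells and less RNA of these genes per cell cannot be told apart.

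**Figure D1:**
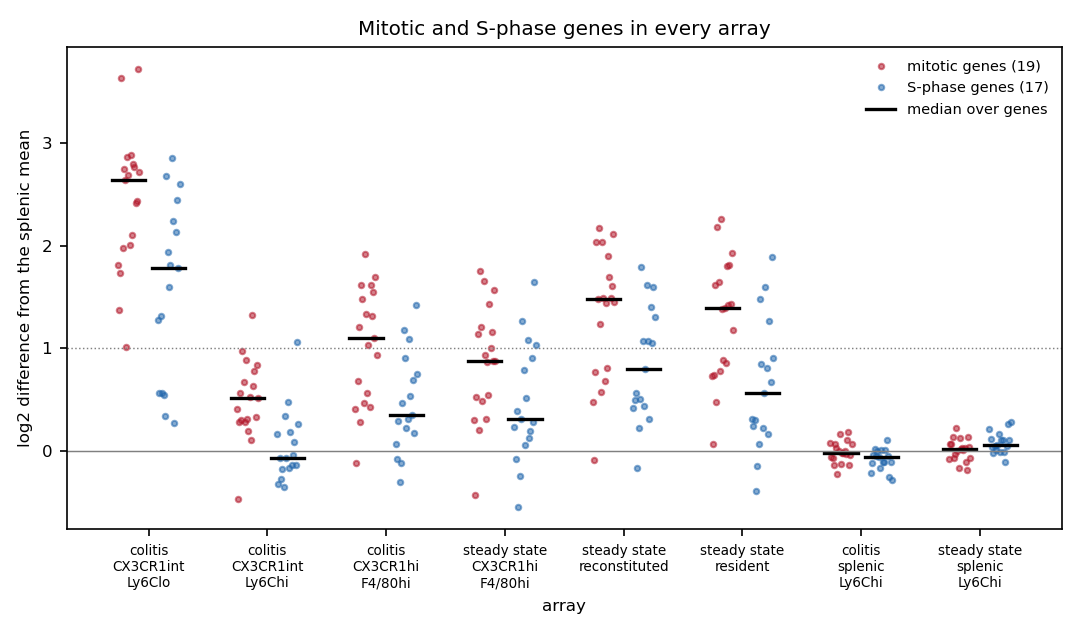
Log2 difference of each mitotic gene (19, red) and each S-phase gene (17, blue) from its own mean over the 2 splenic arrays, by array, with the median over genes as a black bar and a dotted line at a 2-fold difference. The medians reach 2.64 and 1.78 in colitis CX3CR1int Ly6Clo cells, and the mitotic bar lies above the S-phase bar in all 6 colonic arrays.

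The CX3CR1int Ly6Clo array held the highest value of the 8 for 37 of the 42 genes, which included 19 of 19 mitotic genes, 14 of 17 S-phase genes and 3 of 5 G1 genes. Of the 41 genes that were also among the 10673, 36 had their highest value there, against 18.3% of those 10673 genes. The 5 exceptions were Ccnd3, Cdk6, E2f1, Pcna and Tyms. Pcna, the sliding clamp of DNA polymerases, was 11.54 in the Ly6Clo array and 11.22 in the Ly6Chi array, 11.61, 11.46, 11.57 and 11.43 in the CX3CR1hi arrays, and 11.37 and 11.16 in the splenic arrays, a spread so narrow that no array stood apart. Tyms, thymidylate synthase, was 8.34 in the Ly6Clo array and 7.62 in the Ly6Chi array, 7.98, 8.21, 8.16 and 8.45 in the CX3CR1hi arrays, and 6.46 and 6.66 in the splenic arrays, with the resident array highest and both splenic arrays below all others. E2f1, the E2F member that starts S phase, was 7.50 in the Ly6Clo array and 6.81 in the Ly6Chi array, 7.63, 7.47, 7.67 and 7.23 in the CX3CR1hi arrays, and 7.16 and 7.17 in the splenic arrays, and its lowest value lay in the Ly6Chi array.

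**Figure D2:**
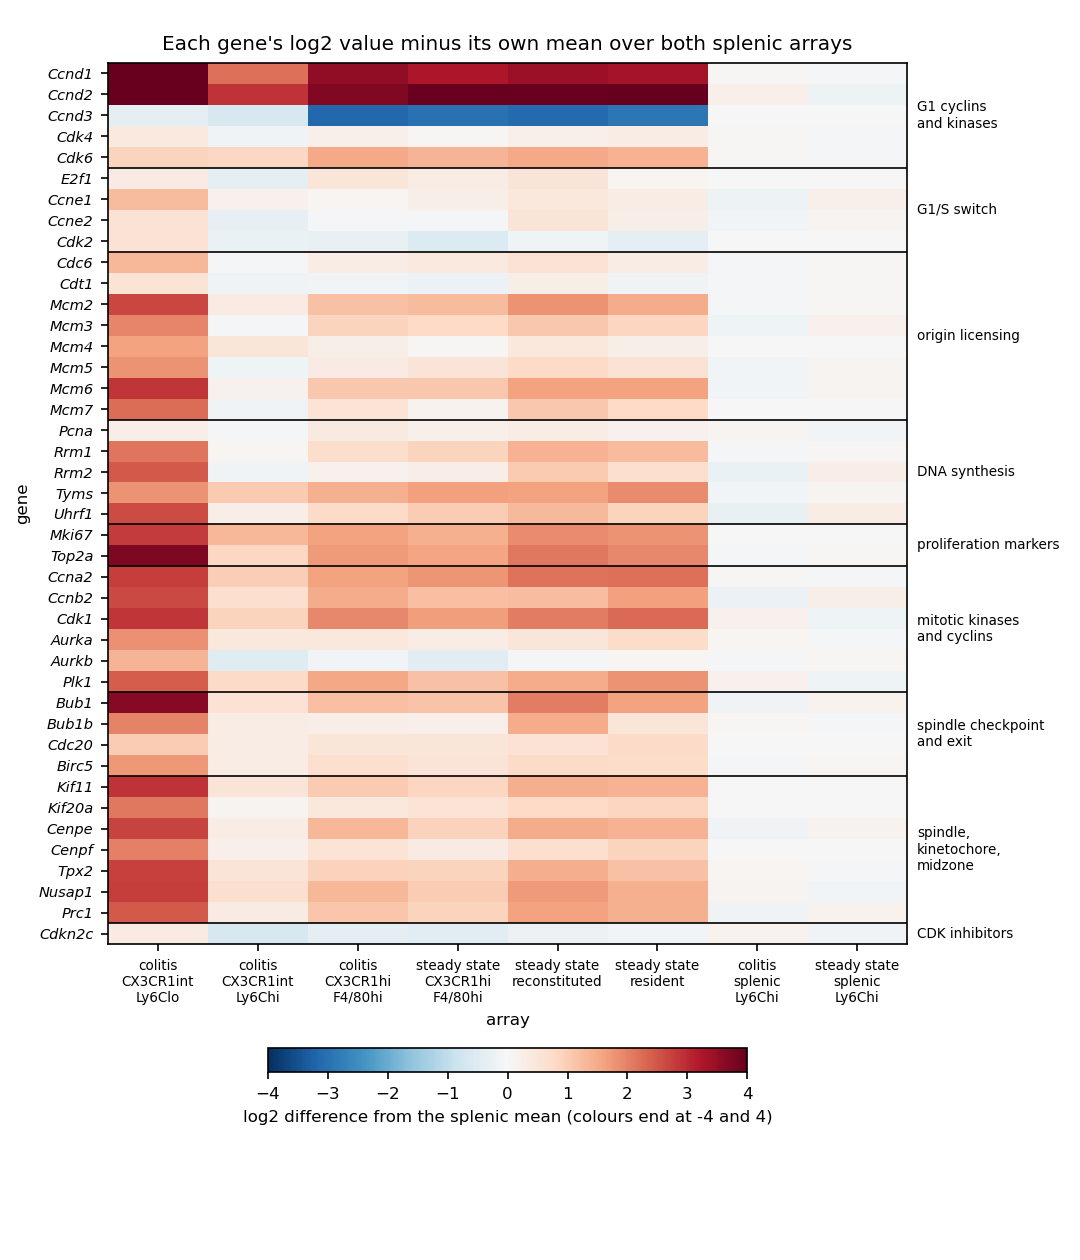
Heat map of the log2 difference of each of the 42 genes from its own mean over both splenic arrays, with genes in rows by role and arrays in columns (red above, blue below, colours ending at -4 and 4). The Ly6Clo column is the reddest for 37 of 42 genes, and Ccnd3 is the one row that is blue in all 4 CX3CR1hi columns by more than 2 on the log2 scale.

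Between the CX3CR1int cells of the colitic colon, all 42 genes were higher in the Ly6Clo array than in the Ly6Chi array, against 51.4% of all genes. A difference of 2-fold or more was seen upward in 31 of the 42 and downward in 0, against 6.46% and 5.51% of the 10132 genes whose brighter array reached its median. Cdc6, Uhrf1, Cenpe, Cenpf, Prc1, Cdkn2c and Cdc20 were below the Ly6Chi array median of 5.86 and passed this filter through the Ly6Clo array alone. Of these, Cdc6, Uhrf1, Cenpe, Cenpf and Prc1 are among the 31. The median difference was 1.97 for mitotic genes and 1.39 for S-phase genes, against 0.01 for all genes. By class, 18 of 19 mitotic genes, 11 of 17 S-phase genes and 2 of 5 G1 genes were at least 2-fold higher. The 11 genes under 2-fold were Cdk4, Ccnd3, Cdk6, Ccne2, Cdk2, E2f1, Cdt1, Tyms, Pcna, Cdc20 and Cdkn2c, so no gene of the G1/S switch other than the cyclin gene Ccne1 (1.11) reached 2-fold.

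Among mitotic genes, Bub1, a kinase of the spindle checkpoint, was 9.58 in the Ly6Clo array and 6.50 in the Ly6Chi array, 7.14, 7.08, 7.98 and 7.56 in the CX3CR1hi arrays, and 5.80 and 6.07 in the splenic arrays, a difference of 3.08 between the CX3CR1int arrays. Top2a was 10.42 in the Ly6Clo array and 7.54 in the Ly6Chi array, 8.39, 8.27, 8.81 and 8.63 in the CX3CR1hi arrays, and 6.66 and 6.74 in the splenic arrays, and its difference was 2.89. Mki67, the gene of the Ki-67 antigen used to mark dividing cells, was 10.85 in the Ly6Clo array and 9.38 in the Ly6Chi array, 9.67, 9.49, 9.96 and 9.86 in the CX3CR1hi arrays, and 8.03 and 8.08 in the splenic arrays. For all 3 genes Ly6Clo was highest, the CX3CR1hi arrays came next and the splenic arrays were lowest, and the Ly6Chi array lay below every CX3CR1hi array and above both splenic ones. A second, dimmer probe set of Top2a, between 5.53 and 6.83, was also highest in Ly6Clo, but there both splenic arrays were above the colitis F4/80hi, steady-state F4/80hi and resident arrays.

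The 7 spindle genes were all higher in Ly6Clo, by similar amounts. Their differences ran from 1.82 for Cenpf, a kinetochore protein, to 2.38 for Cenpe, a kinetochore motor. Kif11, the kinesin that separates spindle poles, was 9.55 in the Ly6Clo array and 7.18 in the Ly6Chi array, 7.70, 7.52, 8.10 and 8.06 in the CX3CR1hi arrays, and 6.64 and 6.68 in the splenic arrays. Nusap1, which bundles spindle microtubules, was 9.50 in the Ly6Clo array and 7.37 in the Ly6Chi array, 8.05, 7.74, 8.43 and 8.16 in the CX3CR1hi arrays, and 6.84 and 6.62 in the splenic arrays. Both genes had the order Ly6Clo, CX3CR1hi, Ly6Chi and splenic, with no overlap between the groups so ordered. The other spindle genes were Tpx2 (2.21), which seeds spindle microtubules, Prc1 (2.10), which crosslinks the midzone, and Kif20a (2.00), a kinesin of cytokinesis. Among kinases and cyclins the differences were 1.98 for Cdk1, 1.97 for Ccnb2, 1.84 for Aurkb, 1.78 for Ccna2, 1.65 for Plk1 and 1.41 for Aurka. The checkpoint kinase gene Bub1b (1.69) and Birc5 (1.45), survivin of the chromosomal passenger complex, were also past 2-fold, while Cdc20 (0.73), the activator of the anaphase-promoting complex, was not.

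Origin licensing and nucleotide supply separated the same 2 arrays. Mcm6 was 9.38 in the Ly6Clo array and 6.71 in the Ly6Chi array, 7.61, 7.61, 8.14 and 8.12 in the CX3CR1hi arrays, and 6.42 and 6.63 in the splenic arrays, a difference of 2.67 between the CX3CR1int arrays. Rrm2, the S-phase subunit of ribonucleotide reductase, was 8.49 in the Ly6Clo array and 5.90 in the Ly6Chi array, 6.21, 6.31, 7.09 and 6.71 in the CX3CR1hi arrays, and 5.78 and 6.30 in the splenic arrays, a difference of 2.59. Uhrf1, which recruits the maintenance DNA methyltransferase to new DNA, was 7.71 in the Ly6Clo array and 5.37 in the Ly6Chi array, 5.86, 6.14, 6.41 and 6.01 in the CX3CR1hi arrays, and 4.83 and 5.39 in the splenic arrays, a difference of 2.34. In all 3 genes Ly6Clo lay above every other array, and for Rrm2 and Uhrf1 the Ly6Chi array fell inside the range of the splenic arrays. The other helicase subunits differed by 2.37 (Mcm7), 2.34 (Mcm2), 2.01 (Mcm3), 1.98 (Mcm5) and 1.12 (Mcm4), and Rrm1, the constitutive subunit of the reductase, by 2.04. Cdc6, the loader of the helicase, was 6.01 in the Ly6Clo array and 4.62 in the Ly6Chi array, 4.98, 5.08, 5.25 and 5.00 in the CX3CR1hi arrays, and 4.65 and 4.73 in the splenic arrays, and Ly6Clo was the only array in which it reached the array median. Cdt1, its partner in loading, differed by 0.72.

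Cell cycle genes outside the 42 were also mostly higher in Ly6Clo. Of all genes past the brightness filter, 51.4% were higher in Ly6Clo and 6.46% at least 2-fold. Of 46 other replication genes past it, 46 were higher in Ly6Clo and 28 at least 2-fold, with a median difference of 1.24. Of 62 other mitotic genes, 61 were higher and 50 at least 2-fold, with a median difference of 1.69. A gene could pass the filter through the Ly6Clo array alone, and these counts include such genes. Of 64 measured mitotic genes, 62 reached the array median in Ly6Clo and 32 in Ly6Chi. Of 53 measured replication genes, 46 reached it in Ly6Clo and 33 in Ly6Chi. The 4 differing most among replication genes were Dtl (2.89), Asf1b (2.53), Prim1 (2.49) and Pole (2.42), and among mitotic genes Ncapg (2.83), Cdca5 (2.70), Anln (2.63) and Cenpn (2.45). Dtl, Prim1, Pole, Cdca5, Anln and Cenpn were below the array median of 5.86 in Ly6Chi. Of 11 other CDK inhibitors and antiproliferative genes, 4 were higher and 7 lower, and 2 were at least 2-fold lower. Of all genes, 48.6% were lower and 5.51% at least 2-fold lower. Cdkn2c, the p18 inhibitor of CDK4 and CDK6, was 6.73 in the Ly6Clo array and 5.77 in the Ly6Chi array, 6.01, 5.98, 6.18 and 6.28 in the CX3CR1hi arrays, and 6.55 and 6.27 in the splenic arrays, so it too was highest in Ly6Clo and lowest in Ly6Chi.

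**Figure D3:**
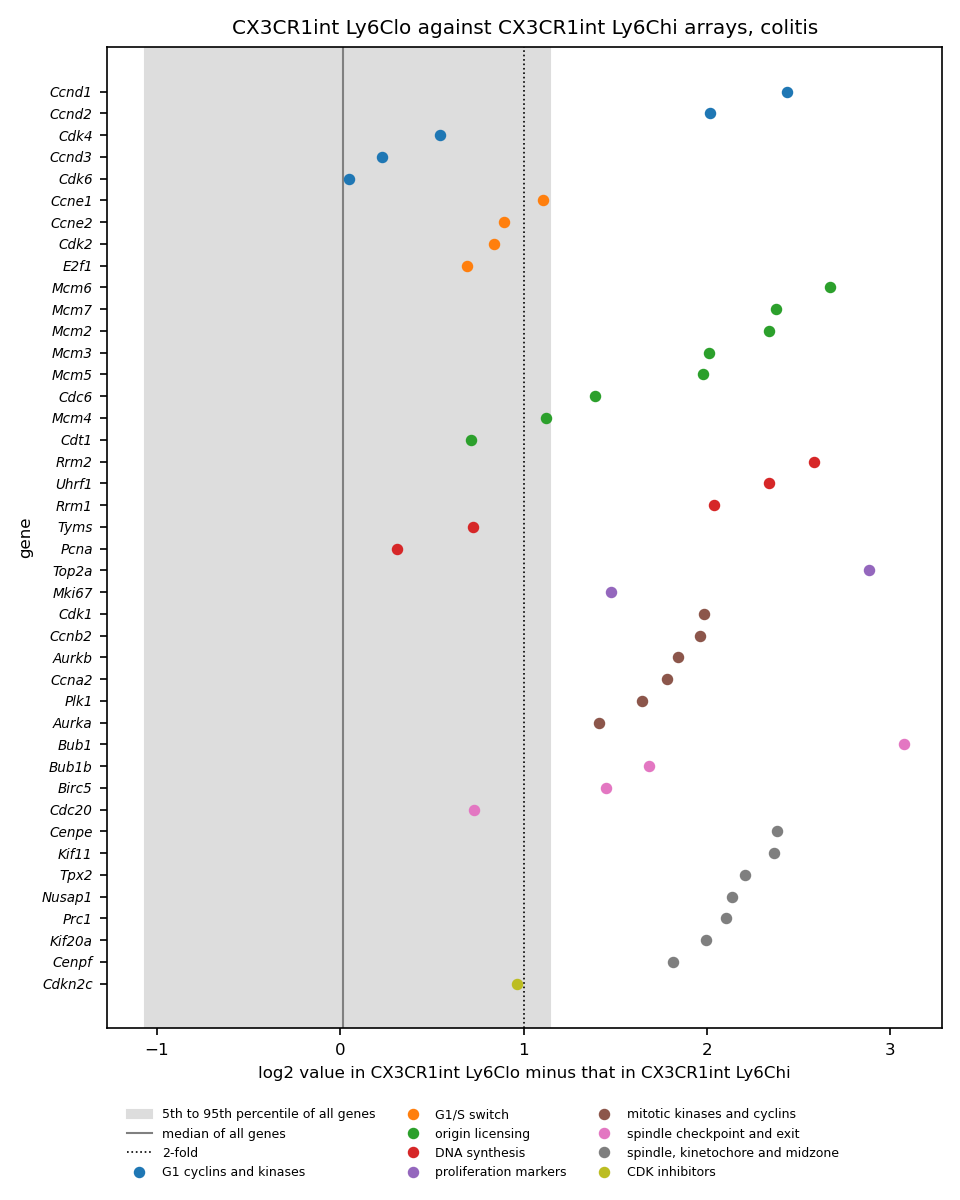
Log2 value in the colitis CX3CR1int Ly6Clo array minus that in the colitis CX3CR1int Ly6Chi array for each of the 42 genes, coloured by role, with the band from the 5th to the 95th percentile of all genes in grey, their median as a grey line and 2-fold as a dotted line. All 42 points lie right of 0, and Bub1 is farthest right at 3.08.

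Markers of other cell types also differed between these arrays. All 6 dendritic cell markers were higher in the Ly6Clo array than in the Ly6Chi array, 5 of them at least 2-fold, and their median was 10.40 in Ly6Clo, 7.92 in Ly6Chi, 5.45 to 6.09 in the CX3CR1hi arrays, and 6.22 and 6.11 in the splenic arrays. Flt3, the receptor for a growth factor of dendritic cell precursors, was 11.16 in the Ly6Clo array and 9.03 in the Ly6Chi array, 5.14, 5.32, 5.20 and 4.87 in the CX3CR1hi arrays, and 8.80 and 8.85 in the splenic arrays. Kit, a stem cell factor receptor of progenitors and mast cells, was 10.37 in the Ly6Clo array and 7.06 in the Ly6Chi array, 6.79, 6.52, 7.61 and 7.27 in the CX3CR1hi arrays, and 5.02 and 5.01 in the splenic arrays, with Ly6Clo above all others. The monocyte median went the other way, at 8.60 in Ly6Clo and 11.73 in Ly6Chi, and the plasma cell median was 6.85 in Ly6Clo and 8.62 in Ly6Chi. Of 8 measured T cell and NK cell markers 2 passed the filter, and both were at least 2-fold higher in Ly6Clo (1.88 and 1.91). Klrk1, a receptor of NK cells and one of them, was 9.98 in Ly6Clo and 8.09 in Ly6Chi. Cd3d, which marks T cells and did not pass the filter, was 4.37 and 4.38, below the array medians. Of 15 epithelial markers 5 were higher in Ly6Clo than in Ly6Chi and 10 lower, 1 of the 10 by at least 2-fold. The crypt median was 5.03 in Ly6Clo, 5.28 in Ly6Chi and 5.64 to 6.67 in the CX3CR1hi arrays, with 4 of 10 crypt markers past the filter between the CX3CR1int arrays. The median of 10 granulocyte and monocyte precursor markers was 4.42 in Ly6Clo and 4.67 in Ly6Chi, both below the array medians of 5.84 and 5.86. Kit belongs to this list, and the other member past the filter, Cd34, was 8.08 in Ly6Clo and 8.45 in Ly6Chi. The part of any of these cell types in the result was not tested.

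**Figure D4:**
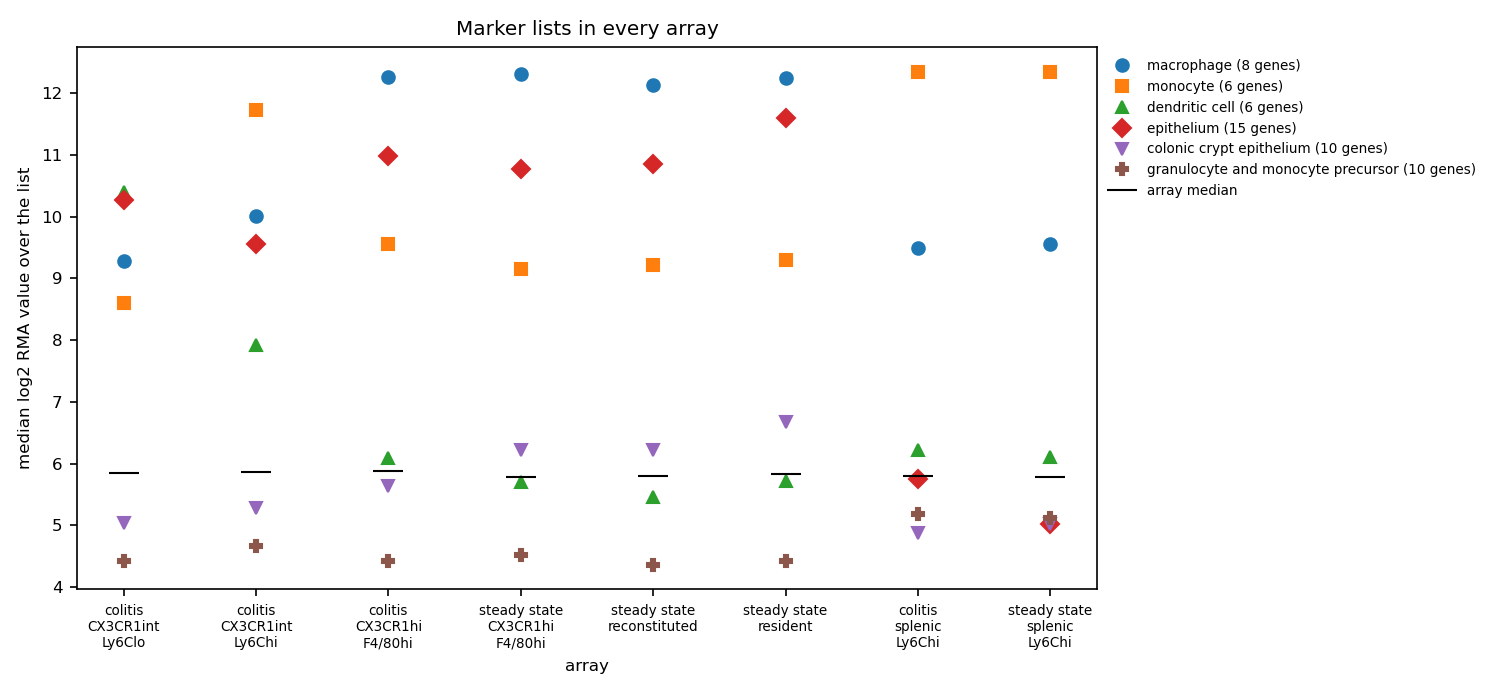
Median log2 RMA value of 6 marker lists in every array, one symbol per list, with the median over all probe sets of each array as a black dash. The dendritic cell list is highest in colitis CX3CR1int Ly6Clo (10.40), and the epithelium list is high in all 6 colonic arrays and lies between 5.02 and 5.74 in the splenic ones.

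Against the CX3CR1hi F4/80hi macrophages of the same colitic colon, the Ly6Clo array was also higher for most of these genes. A difference of 2-fold or more was seen upward in 30 of the 42 and downward in 0, against 7.27% and 11.8% of 10396 genes. Cdc6, Uhrf1 and Cenpf were below the F4/80hi array median of 5.87 and passed the filter through the Ly6Clo array alone. The median difference was 1.41 for mitotic genes, 1.20 for S-phase genes and -0.01 for all genes. Bub1 (2.44), Rrm2 (2.28) and Top2a (2.03) differed by more than 2 on the log2 scale, and Ccnd3 by 2.74. Cdk6 (-0.63), E2f1 (-0.13) and Pcna (-0.07) were the 3 genes below 0. Epithelial markers were lower in Ly6Clo, 14 of 15 of them and 10 by at least 2-fold, and 6 of 6 dendritic cell markers were at least 2-fold higher.

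The populations were then tested with limma, with 4 CX3CR1hi, 2 CX3CR1int and 2 splenic arrays as the replicates of a population although the labels name them as separate groups, so the spread within a population includes colitis, origin, sex and Ly6C. Of the 42 genes, 41 were bright enough to be tested, Cdc6 not being so. The Ly6Clo and Ly6Chi arrays, which lie far apart for these genes, share the estimate of spread with the others: the median SE was 0.46 for the 41 genes and 0.17 for all genes in CX3CR1hi against splenic.

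CX3CR1hi macrophages of the colon had higher values than splenic monocytes for 3 G1 genes, 7 mitotic genes and Tyms, and a lower one for Ccnd3. Of the 41 genes, 11 were higher and 1 lower, against 22.2% and 29% of the 10673 genes tested. The higher count is near the share of all genes, and the lower count is below it. The median log2 fold change was 1.25 for the 19 mitotic genes, of which 7 were higher, and 0.55 for the 16 S-phase genes, of which 1 was higher, against -0.12 for all genes. In 33 of the 42 genes, and in 32 of the 41 tested, all 4 CX3CR1hi arrays lay above both splenic arrays, against 31.5% of 10673 genes. In 2 genes all lay below, against 42.8%. Against the colitis splenic array alone, all 4 CX3CR1hi arrays were higher in 36 of the 42 genes, the untested Cdc6 among them, against 33.9%. Fitted with the 6 arrays of the contrast alone, 27 genes were higher and 2 lower, against 26.2% and 34.1% of 10564 genes, and 17 of 19 mitotic and 7 of 16 S-phase genes were among the higher ones. Without the colitis splenic array 8 genes passed in the fit of all populations, against 31.4% of all genes. Without the steady-state one, which went against its sex label, Ccnd1, Ccnd2, Ccnd3, Cdk6, Tyms and Mki67 passed, 6 of 41 against 29.7% of all genes, and Top2a, Ccna2, Ccnb2, Cdk1, Plk1 and Cdc20 did not.

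The kinase of mitotic entry, Cdk1, averaged 8.19 ± 0.25 in CX3CR1hi and 6.22 ± 0.23 in splenic arrays (SD, n = 4 and 2; log2 fold change 1.97 ± 0.47 (SE), adjusted p = 0.01 by limma). Ccna2, cyclin A of S phase and mitosis, was 10.10 in the Ly6Clo array and 8.32 in the Ly6Chi array, 8.97, 9.10, 9.52 and 9.54 in the CX3CR1hi arrays, and 7.38 and 7.32 in the splenic arrays (log2 fold change 1.93 ± 0.43 (SE), adjusted p = 0.00738). Neither gene overlapped between the CX3CR1hi and splenic arrays. Also higher were Mki67 (1.69, adjusted p = 0.00565), Plk1, the polo kinase of mitotic entry (1.50, 0.0171), Ccnb2 (1.39, 0.0383), Cdc20 (0.58, 0.0449) and Top2a (1.83, 0.0486), the last close to the threshold of 0.05. Tyms was the S-phase gene past the threshold (log2 fold change 1.64 ± 0.22 (SE), adjusted p = 0.00068). Bub1 (log2 fold change 1.50), Mcm2 (1.43) and Mcm6 (1.35) lay further above 0 than Cdc20 but did not pass, and all 3 passed when the 6 arrays of the contrast were fitted alone. Aurkb, the kinase of chromosome alignment, was 9.83 in the Ly6Clo array and 7.99 in the Ly6Chi array, 8.34, 8.03, 8.37 and 8.52 in the CX3CR1hi arrays, and 8.39 and 8.52 in the splenic arrays, and its CX3CR1hi and splenic values overlapped.

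The D-type cyclins, the partners of CDK4 and CDK6, had the 3 largest log2 fold changes of the 41 genes between CX3CR1hi and splenic cells, and they went in opposite directions. Ccnd1 was 11.39 in the Ly6Clo array and 8.95 in the Ly6Chi array, 10.28, 9.98, 10.17 and 10.09 in the CX3CR1hi arrays, and 6.79 and 6.71 in the splenic arrays (log2 fold change 3.38 ± 0.55 (SE), adjusted p = 0.0017 for CX3CR1hi against splenic). Ccnd2 was 11.48 in the Ly6Clo array and 9.47 in the Ly6Chi array, 10.27, 10.54, 10.53 and 10.77 in the CX3CR1hi arrays, and 6.77 and 6.38 in the splenic arrays (log2 fold change 3.95 ± 0.48 (SE), adjusted p = 0.000422). Ccnd3 was 9.94 in the Ly6Clo array and 9.71 in the Ly6Chi array, 7.20, 7.37, 7.23 and 7.46 in the CX3CR1hi arrays, and 10.35 and 10.33 in the splenic arrays (log2 fold change -3.03 ± 0.13 (SE), adjusted p = 6.92e-06). Thus Ccnd1 and Ccnd2 were high in all colonic arrays and low in both splenic ones, while Ccnd3 was high in the splenic and CX3CR1int arrays and low in the 4 CX3CR1hi arrays, with no overlap. Ccnd3 was the one gene higher in CX3CR1int than in CX3CR1hi cells (log2 fold change 2.51 ± 0.13 (SE), adjusted p = 4.23e-05), and it was lower in CX3CR1int than in splenic cells (log2 fold change -0.52 ± 0.15 (SE), adjusted p = 0.0385). Cdk6 was 9.30 in the Ly6Clo array and 9.25 in the Ly6Chi array, 9.93, 9.76, 9.94 and 9.79 in the CX3CR1hi arrays, and 8.46 and 8.37 in the splenic arrays (log2 fold change 1.44 ± 0.11 (SE), adjusted p = 4.9e-05 for CX3CR1hi against splenic). It was lower in CX3CR1int than in CX3CR1hi cells (log2 fold change -0.58 ± 0.11 (SE), adjusted p = 0.00813). Cdk4 was between 10.14 in Ly6Chi and 10.69 in Ly6Clo, and no population contrast passed for it.

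**Figure D5:**
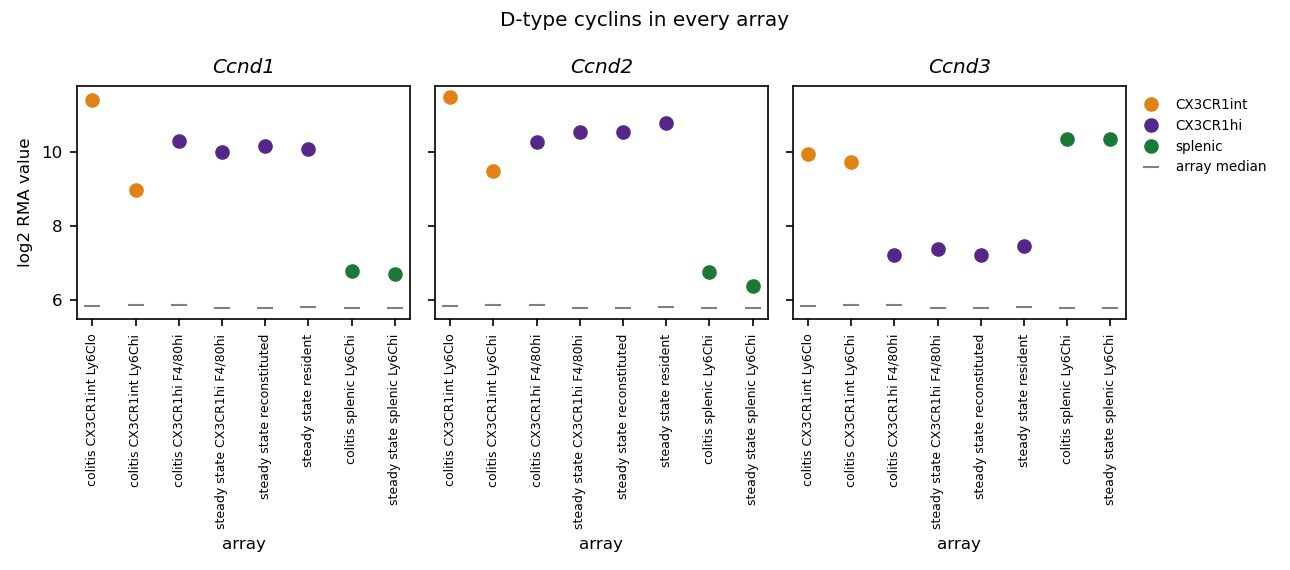
Log2 RMA values of Ccnd1, Ccnd2 and Ccnd3 in the 8 arrays, coloured by population, with the median over all probe sets of each array as a grey dash; heights are not comparable between panels because each gene has its own probe set. Ccnd1 and Ccnd2 are lowest in the splenic arrays (6.38 to 6.79), and Ccnd3 is lowest in the CX3CR1hi arrays (7.20 to 7.46).

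Epithelial markers also differed between CX3CR1hi and splenic cells. All 15 epithelial markers were higher in CX3CR1hi cells by limma, with a median log2 fold change of 5.61, and 6 of 7 tested crypt markers were higher, with a median of 1.79. The epithelial median was 10.77 to 11.60 in the CX3CR1hi arrays, and 5.74 and 5.02 in the splenic arrays. Lgr5, the marker of dividing crypt stem cells, was 4.70 in the Ly6Clo array and 4.97 in the Ly6Chi array, 5.14, 6.31, 5.74 and 6.58 in the CX3CR1hi arrays, and 4.67 and 4.57 in the splenic arrays, so it reached the array median in the steady-state F4/80hi and resident arrays. Of 6 tested plasma cell markers 4 were also higher in CX3CR1hi cells. Without the steady-state splenic array 15 of 15 epithelial, 4 of 7 crypt and 2 of 6 plasma cell markers were higher. Their part in the difference was not tested.

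The comparison of CX3CR1int with CX3CR1hi cells depended on which CX3CR1int array was used. With both arrays, 1 gene was higher (Ccnd3) and 1 lower (Cdk6) of 41, against 13.3% and 16.6% of all genes. With the Ly6Clo array alone, 33 of 41 were higher and 1 lower, against 16.9% and 17.3% of 10610 genes, and these were 17 of 19 mitotic, 12 of 16 S-phase and 3 of 5 G1 genes and Cdkn2c. With the Ly6Chi array alone, 1 was higher and 14 were lower, against 12.3% and 13.8% of 10608 genes. The 14 were Ccnd1, Ccnd2, Cdk6, E2f1, Mcm2, Mcm3, Mcm5, Mcm6, Rrm1, Ccna2, Cdk1, Cenpe, Prc1 and Top2a. In both of these fits the lone array is assumed to vary like the arrays of the other populations. With both arrays, 9 of 15 epithelial and 5 of 7 crypt markers were lower in CX3CR1int cells and 4 of 5 dendritic cell markers were higher, and their part in the result was not tested.

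CX3CR1int cells were higher than splenic monocytes for 8 genes and lower for 1 of 41, against 10.2% and 14.2% of all genes. The 8 were Ccnd2 (3.90), Ccnd1 (3.43), Mki67 (2.06), Cdk1 (1.88), Ccna2 (1.86), Plk1 (1.60), Tyms (1.42) and Cdk6 (0.86), with adjusted p between 0.00303 and 0.0449. Without the Ly6Chi array 34 genes passed, against 35.2% of all genes, and without the Ly6Clo array 8, against 19.6%, which is the share of all genes. Without the colitis splenic array 2 passed, against 8.33%, and without the steady-state splenic array Ccnd2, Cdk6 and Tyms did, 3 of 41 against 5.88%. Leaving out the steady-state F4/80hi array left 5, against 19.7%, and leaving out the reconstituted array also left 5, against 21.4%. All 15 epithelial markers were higher in CX3CR1int cells, 13 of 15 without the steady-state splenic array, with a median log2 fold change of 4.29 over all arrays, and their part in the result was not tested.

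Between the Ly6Chi cells of the colitic colon and the Ly6Chi monocytes of the spleen in the same condition, 36 of the 42 genes passed the brightness filter. Of these, 4 were at least 2-fold higher in the colon and 0 lower, against 9.79% and 3.95% of 10083 genes. They were Ccnd2 (2.70), Ccnd1 (2.17), Mki67 (1.35) and Tyms (1.16). The median difference was 0.55 for mitotic genes, 14 of 15 of them above 0, and 0.10 for S-phase genes, 8 of 15 above 0, against -0.13 for all genes, of which 38.7% were above 0. Cdkn2c (-0.78) and Ccnd3 (-0.64) were the lowest. Birc5, Tpx2 and Rrm2, all above 0, were below the splenic array median of 5.80 and passed the filter through the Ly6Chi array alone. Cdkn2c was below the Ly6Chi array median of 5.86 and passed it through the splenic array alone. All 15 epithelial markers were at least 2-fold higher in the colonic array, by a median of 3.84, as were 7 of 7 plasma cell (median 2.92), 7 of 7 stromal (1.86) and 4 of 4 endothelial markers past the filter (1.73), and 4 of 5 dendritic cell markers. In the colitis splenic array 7 of 15 epithelial, 4 of 7 plasma cell and 2 of 7 stromal markers reached the array median. Of 6 measured endothelial and 6 dendritic cell markers, 1 and 3 did. The other markers past the filter passed it through the Ly6Chi array alone. The part of these cell types in the differences was not tested.

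Among steady-state colonic macrophages, those reconstituted from monocytes and the resident ones differed little. Of 41 genes past the filter 1 was at least 2-fold higher in the reconstituted array and 0 lower, against 0.675% and 1.09% of 10374 genes. The gene was Bub1b, at 8.39 in reconstituted and 7.39 in resident cells, a difference of 1.00 that only just reaches 2-fold. S-phase genes were higher in the reconstituted array for 15 of 16 genes, with a median of 0.23 and values up to 0.44 (E2f1), and the exception was Tyms (-0.29), while 42.8% of all genes were above 0. Mitotic genes were higher for 10 and lower for 9 of 19, from -0.40 (Ccnb2) to the value of Bub1b, with a median of 0.03. The median over all genes was -0.04, and all 15 epithelial markers were lower in the reconstituted array, with a median difference of -0.45.

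The steady-state F4/80hi array stood below the resident array for most of these genes, as it did for most of the table, at less than 2-fold. No gene of the 41 past the filter reached 2-fold in either direction, against 0.279% higher and 3.36% lower of 10384 genes, while 38 of 41 differences were below 0, against 66.9% of all genes. The median was -0.43 for mitotic genes, all 19 below 0, and -0.16 for S-phase genes, against -0.11 for all genes. Mcm7 (-0.68), Plk1 (-0.65) and Cdk1 (-0.60) were the lowest, and E2f1 (0.24) was the highest. Epithelial markers differed the same way, 15 of 15 lower with a median of -0.65, and so did 9 of 9 crypt markers with a median of -0.51. Their part in the difference was not tested, and the labelled sex of the arrays differs as well.

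None of these genes passed the threshold for a difference between colitis and steady state. In a limma fit of the 6 CX3CR1hi and splenic arrays with population and colitis as terms, 0 of 41 genes were higher and 0 lower, against 0% and 0% of 10564 genes, and at an unadjusted p under 0.05 there were 2 of the 41 and 306 of all genes. Those were Uhrf1 (log2 fold change -0.42) and Ccne1 (-0.32), both lower in colitis. The colitis effect did not differ between CX3CR1hi and splenic cells at the threshold for any of the 41 genes or of the 10564 genes (limma interaction term), with 1 and 294 at an unadjusted p under 0.05.

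Between single arrays, F4/80hi macrophages in colitis and at steady state differed by -0.28 (Uhrf1) to 0.41 (Mcm7) for the 40 genes past the filter. None was 2-fold different, against 1.23% of 10269 genes higher and 0.243% lower. Mitotic genes were above 0 for 15 of 18, with a median of 0.16, and S-phase genes for 8 of 16, with a median of 0.00, against 0.10 for all genes, of which 67.9% were above 0. With another steady-state array the sign turned: the mitotic median was -0.26 against the resident and -0.29 against the reconstituted array. Between the 2 F4/80hi arrays, 7 of 7 stromal markers were higher in colitis, 4 of them at least 2-fold (median 1.06). All 6 crypt markers past the filter were lower (median -0.35), and of 15 epithelial markers 8 were higher and 7 lower. Their part in the differences was not tested. In splenic monocytes 34 genes passed the filter and none was 2-fold different, against 0.686% higher and 0.0211% lower of 9469 genes, with medians of -0.11 for S-phase and -0.01 for mitotic genes. Rrm2 (-0.52) and Ccnb2 (-0.45) were the lowest there. Of 7 epithelial markers past the filter 5 were at least 2-fold higher in the colitis splenic array, and their part was not tested; condition and labelled sex cannot be told apart in this pair.

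Regulators outside the 42 differed between the populations in both directions, and their counts are to be read against the 22.2% higher and 29% lower of all genes. Of 16 E2F and pocket protein genes, 3 were higher and 5 lower in CX3CR1hi than in splenic cells, near those shares, among them E2f2 (-2.84), an activating E2F, E2f5 (1.27), a repressing E2F, E2f4 (-0.62) and Rbl2 (-0.62), the p130 pocket protein. E2f2 was 7.08 in the Ly6Clo array and 7.68 in the Ly6Chi array, 5.68, 5.90, 6.09 and 5.99 in the CX3CR1hi arrays, and 8.87 and 8.63 in the splenic arrays, with every CX3CR1hi array below every other. Of 11 other CDK inhibitors and antiproliferative genes, 5 were higher and 2 lower, among them Gadd45b (2.39), Tob1 (1.45), Cdkn2b (1.05), the p15 inhibitor, and Cdkn2d (-1.69), the p19 inhibitor. Cdkn2d was higher in CX3CR1int than in CX3CR1hi cells (1.96), as was Cdkn1b, the p27 inhibitor (1.11). Of 7 Myc family and growth signal genes, 3 were higher in CX3CR1hi than in splenic cells: Myb (3.26), Myc (3.09) and Mxd1 (2.40), an antagonist of Myc. Mxd1 was also higher in CX3CR1int than in CX3CR1hi cells (0.97), whereas Myb was lower there (-1.36). Of 12 p53 target genes, 4 were higher and 2 lower, led by Plk3 (3.53), Plk2 (3.42), Fas (-2.45) and Tnfrsf10b (1.39). Of 43 other replication genes, 4 were higher and 3 lower, fewer than those shares give, among them Lig1 (1.69), the ligase of Okazaki fragments, Tk1 (1.10), thymidine kinase, Pold2 (1.02) and Gins4 (-0.72). Of 53 other mitotic genes, 10 were higher, near the share of all genes, and 3 lower, below it, among them Stmn1 (2.41), Ect2 (1.81), Ncapg2 (1.53) and Racgap1 (-1.93), the last of which forms the centralspindlin complex of cytokinesis and went against the others. All adjusted p-values of these named genes were under 0.05 by limma, with Benjamini-Hochberg adjustment over all 10673 genes. Without the steady-state splenic array 14 of the 23 named for CX3CR1hi against splenic passed, and Lig1, Tk1, Pold2, Gins4, Ect2, Ncapg2, E2f4, Rbl2 and Tnfrsf10b did not.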

How the data were processed

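RNA of sorted cells was measured on 8 Affymetrix mouse arrays, 1 per labelled group. The deposited table holds log2 values normalised by the authors with RMA in Partek, per the submitters' processing notes; the versions are not given in the sources used here. RMA makes array distributions alike, so a shift common to all genes would not be seen. Of 35399 probe sets, 21789 carried 1 gene symbol, and the brightest over the 8 arrays stood for each of 19938 genes.

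Populations were compared with limma 3.58.1 in R 4.3.3 (lmFit, eBayes) over genes at or above an array's median on 2 or more arrays, with Benjamini-Hochberg adjustment over all genes tested and a threshold of 0.05. All tests were two-sided. Arrays of a population are separate labelled groups, so p-values measure the spread between these arrays. Colitis was tested with population as a covariate. Single arrays were subtracted over genes whose brighter array reached its median. The scripts were tested on simulated data.

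The members and gene lists were chosen with earlier results of these data known. Outside the members, up to 4 genes of each pathway list with the largest fold change past the threshold were named. Lgr5, Kit, Klrk1, Cd3d, Flt3, Epcam and the replication and mitotic genes named between single arrays were chosen after their values were seen. Alternatives were other filters, probe set rules, scalings, priors, covariates and each array left out.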

Additional observations from a re-analysis of the deposited data

How the results depend on the processing

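The main fits passed 12 genes of the 42 for CX3CR1hi against splenic, 2 for CX3CR1int against CX3CR1hi, 9 for CX3CR1int against splenic and 0 for colitis. With only the arrays of the contrast these were 29 (6375 of all genes, 5466 in the fit of all arrays), 2 and 1 (1092 of all genes, against 2605). A minimum fold of 2 left 1 for CX3CR1int against CX3CR1hi (1480 of all genes, against 3186), and 2589 and 1338 of all genes for the other population contrasts. Colitis as a covariate left 5 for CX3CR1int against splenic (1643 of all genes), and 972 of all genes for CX3CR1int against CX3CR1hi; labelled sex as a block left 5 (1895) and 1992 of all genes. Keeping genes above the 75th percentile left 3505 of all genes for CX3CR1hi against splenic. Leaving out each array in turn gave 6 to 29 genes of the 42 for CX3CR1hi against splenic, 2 to 34 for CX3CR1int against CX3CR1hi and 2 to 34 for CX3CR1int against splenic. Without the steady-state splenic array 3119 and 619 of all genes passed against splenic cells for CX3CR1hi and CX3CR1int, and without the colitis splenic array 3306 and 877. For colitis, 0 of the 42 passed under every alternative run, and 3 of all genes without the colitis F4/80hi array. Of the values of passing genes under the alternatives, 304 kept their side of the threshold, 84 did not and 0 changed direction. For colitis F4/80hi, the S-phase median was -0.42 against the reconstituted array, and the mitotic median -0.26 against the resident and -0.29 against the reconstituted array. The S-phase median of Ly6Clo against Ly6Chi was 2.01 over genes above the 75th percentile. Against each gene's mean over all 8 arrays, the mitotic minus S-phase difference was 0.21 in Ly6Clo, 0.059 in Ly6Chi, 0.19, -0.11, 0.087 and 0.26 in the CX3CR1hi arrays, and -0.43 and -0.52 in the splenic arrays. The cause of these shifts was not tested. No paired analysis was possible because each group has 1 array and the groups share no more than 1 replicate number. The comparisons with the colitis splenic array alone, the counts of order and the interaction term were added after seeing the data. With 1 array per group, the number of arrays limits the precision.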
